A study of Mus musculus with 3 samples.

Results

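Chemokines and cytokines are the secreted messengers with which fibroblasts call in and sustain cells of the immune system, and 10 of their genes were examined in mouse embryonic fibroblasts (MEFs). The genes were chosen by symbol and comprise the chemokines Ccl2, Ccl5, Ccl7, Cxcl1, Cxcl5 and Cxcl12, the interleukin-6 family cytokines Il6, Il11 and Lif, and the macrophage growth factor Csf1. All 10 were found among the 46603 Ensembl genes of the count tables. The cells, called KO-actin, lack endogenous β-actin and carry β-actin with a nuclear localization signal (NLS) instead. The labels give the genotype as Beta-actin KO-NLS and the cell type as fibroblast, and the study describes them as lines generated before this work. The promoter that drives the NLS-tagged copy and the number of clones are not given in the sources used here. RNA-Seq of polyadenylated RNA was available for 3 libraries of this genotype, replicates 1 to 3, with no stimulus, dose or time point in their labels. KO and wild-type cells were not analyzed here. No test between conditions was therefore possible, and the levels describe the basal state of KO-actin cells alone. They are levels of mRNA, from which the amount of secreted protein cannot be read.

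Most chemokines fall into a CC class, whose first pair of cysteines is adjacent, and a CXC class, in which a residue separates them. They act through G protein-coupled receptors on migrating leukocytes. Fibroblasts of many tissues make some of them constantly, such as CXCL12, and others, such as CCL2 and CXCL1, mainly when tumor necrosis factor, interleukin-1 or microbial products activate NF-κB. Interleukin-6, interleukin-11 and LIF signal through a shared receptor chain encoded by Il6st, and CSF1 keeps macrophages alive and dividing.

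Library totals ranged from 44383636 to 49932446 counts, and values are given as CPM, the counts in every 1000000 of a library after edgeR's TMM factors were applied to its size. Values for single libraries are listed in the order of replicates 1 to 3. A count of 0 allows up to 3 counts, which corresponded to 0.0601 to 0.0671 CPM and covers counting error only. The labels do not say whether the replicates were separate cultures, so their spread may be technical. Replicate 2 stood apart. The chi-square per gene was 3.78 between replicates 1 and 3 and at least 10.8 between replicate 2 and either of them. Among genes that varied between libraries, replicate 2 was the farthest from the mean in 59.2%. Actb, the gene knocked out and put back, was at 1063 to 1114 CPM, a value that does not separate the NLS-tagged copy from RNA of the knocked-out locus. The fibroblast label was set against a list of 10 fibroblast markers, of which 8 had a mean of at least 1 CPM. That mean was reached by 52.2% of all protein-coding genes. Col1a1, Fn1 and Vim were each at 3562 CPM or more in every library, while Thy1 was at 0.836 CPM and Dcn had at most 8 counts. Of 10 markers of macrophages and other leukocytes, which are also rich sources of chemokines, Cd68 and Cd14 were above 1 CPM, and their defining gene Ptprc had 0, 1 and 0 counts. The sum of these 10 ranged from 15.5 to 17.6 CPM.

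The mRNA of these messengers in KO-actin cells ranged from abundant to almost none. Cxcl12 and Csf1 were the highest in CPM, Ccl2 followed, and Ccl7, Cxcl1, Cxcl5 and Lif formed a falling series. Il11, Il6 and Ccl5 lay near the limit of detection. In bulk RNA, fewer cells of a type and less RNA per cell cannot be told apart. A mean of at least 1 CPM was reached by 7 of the 10 genes, against 52.2% of all 21547 protein-coding genes and 25.98% of all genes in the tables. More than 3 counts in every library were found for 9 of them, the exception being Ccl5. The share of all genes above that floor is not given here, and 20245 to 20488 of the 46603 genes had any count in a library. Together the 10 genes summed to 1924 ± 17.95 CPM (SD, n = 3). Of this sum Cxcl12 held 49.4% ± 0.769 (SD, n = 3) and Cxcl12 with Csf1 held 87.0% ± 0.666 (SD, n = 3). The annotated exons of Cxcl12 cover 8176 bases in all, where its longest coding transcript has 5627. CPM of each gene was then divided by exonic length. On that scale Cxcl12 held 24.7% ± 0.870 of the sum and Cxcl12 with Csf1 53.9% ± 1.36 (each SD, n = 3).

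**Figure D1:**
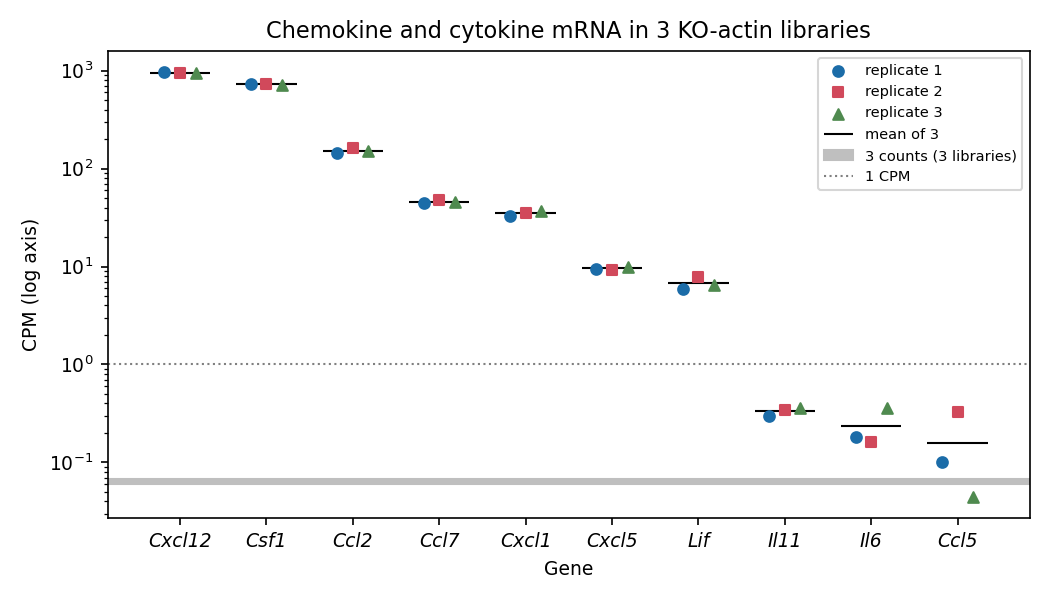
CPM of the 10 genes (log axis) in each library, with the mean of the 3 as a bar, the level of 3 counts as a gray band and 1 CPM as a dotted line. The genes from Cxcl12 to Lif lie above 1 CPM in every library, from 968 CPM for Cxcl12 in replicate 1 down to 5.95 CPM for Lif in replicate 1, and Il11, Il6 and Ccl5 lie below 1 CPM in every library.

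Cxcl12 (ENSMUSG00000061353) encodes the chemokine that retains hematopoietic stem and progenitor cells in bone marrow by way of its receptor CXCR4. The gene lies on chromosome 6 of GRCm38 from 117168535 to 117181367. The 3 libraries held 968, 941 and 939 CPM, which average to 949 ± 16.2 CPM (SD, n = 3). The highest library exceeded the lowest by 1.03-fold. By CPM it ranked 75 among all genes, with 99.7% of protein-coding genes below it, and by CPM per kilobase of exon it ranked 370, with 98.4% below it.

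Csf1 (ENSMUSG00000014599) encodes the growth factor of monocytes and macrophages and lies on chromosome 3 from 107741048 to 107760469 on the minus strand. Its levels were 726, 732 and 714 CPM, with a mean of 724 ± 9.17 CPM (SD, n = 3). It ranked 121 among all genes by CPM and 295 by CPM per kilobase of exon. The order turned per kilobase of exon, where Cxcl12 stood at 0.847 ± 0.0158 of Csf1 (SD, n = 3). Csf1 was the steadiest of the 10 genes, with a coefficient of variation of 1.27%.

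Ccl2 and Ccl7, neighboring genes on chromosome 11, encode CC chemokines that draw monocytes out of blood through the receptor CCR2. Ccl2 (ENSMUSG00000035385), from 82035571 to 82037453, was measured at 143, 162 and 150 CPM, with a mean of 152 ± 9.64 CPM (SD, n = 3). Ccl7 (ENSMUSG00000035373), from 82045712 to 82047525, was measured at 44.9, 47.5 and 45.7 CPM, with a mean of 46.0 ± 1.29 CPM (SD, n = 3). Both were highest in replicate 2 and lowest in replicate 1. The level of Ccl2 per kilobase of exon exceeded that of Ccl7 by 2.24-fold, 2.41-fold and 2.31-fold. Without replicate 2 the means were 147 CPM for Ccl2 and 45.5 CPM for Ccl7.

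Cxcl1 and Cxcl5 encode chemokines that attract neutrophils through CXCR2, and both lie on chromosome 5. Cxcl1 (ENSMUSG00000029380), from 90891241 to 90893115, gave 32.7, 35.4 and 36.9 CPM, with a mean of 34.99 ± 2.16 CPM (SD, n = 3). Cxcl5 (ENSMUSG00000029371), from 90759360 to 90761624, gave 9.50, 9.27 and 9.96 CPM, with a mean of 9.58 ± 0.350 CPM (SD, n = 3). Both were highest in replicate 3. Per kilobase of exon Cxcl1 exceeded Cxcl5 in every library, with a ratio of 3.63 ± 0.193 (SD, n = 3). The ratio was 6.04 ± 0.321 (SD, n = 3) when the coding transcript of each gene was taken as its length.

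Lif (ENSMUSG00000034394) encodes leukemia inhibitory factor, the cytokine known for keeping mouse embryonic stem cells pluripotent, and lies on chromosome 11 from 4257557 to 4272514. The libraries held 5.95, 7.75 and 6.42 CPM, which average to 6.71 ± 0.934 CPM (SD, n = 3). Replicate 2 was the highest, and the mean was 6.21 CPM without replicate 2. Among the 7 genes above 1 CPM it had the widest spread, with a coefficient of variation of 13.9%.

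Il11, Il6 and Ccl5 were detected at a few counts each. Il11 (ENSMUSG00000004371), which encodes a cytokine of the same family as LIF, lies on chromosome 7 from 4772373 to 4782859 and had 15, 17 and 16 counts, equal to a mean of 0.335 ± 0.0302 CPM (SD, n = 3). The exact (Clopper-Pearson) 95% intervals of these counts spanned 0.168 to 0.585 CPM of the unscaled library. Il6 (ENSMUSG00000025746), from 30013114 to 30019981 on chromosome 5, encodes the inflammatory cytokine interleukin-6 and had 9, 8 and 16 counts, equal to a mean of 0.234 ± 0.108 CPM (SD, n = 3). Replicate 3 was the highest for Il6. The intervals of Il6 ran from 0.0697 to 0.585 on that scale and overlapped those of Il11. Divided by exonic length, Il11 was above Il6 in each of the 3 libraries, but their ranges overlapped, and with the mean length of their coding transcripts the order held in replicates 1 and 2 and not in replicate 3. With the longest coding transcript the lowest value of Il11, 0.1542 CPM per kb, lay just above the highest of Il6, 0.1528. As their counting intervals overlapped, the pair was not told apart. Per kilobase of exon Lif exceeded Il6 by 18.4-fold, 26.7-fold and 10.01-fold and Il11 by 8.58-fold to 10.8-fold over the libraries. With the mean length of the coding transcripts, Lif exceeded Il6 by 10.7-fold and Il11 by 6.84-fold on average. Within the interleukin-6 family only Lif therefore passed 1 CPM among the 3 members examined.

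Ccl5 (ENSMUSG00000035042) encodes a chemokine that attracts T cells and monocytes and lies on chromosome 11 from 83525778 to 83530518 on the minus strand. The counts were 5, 16 and 2, or 0.100, 0.325 and 0.0448 CPM. Replicate 2 decided this value, and the mean of 0.157 ± 0.148 CPM (SD, n = 3) fell to 0.0727 CPM without it. The genes of the leukocyte list did not share a highest library. Lyz2, a gene of macrophages and neutrophils, was highest in replicate 2, with 1, 12 and 2 counts. Csf1r was highest in replicate 1, with 16, 6 and 11 counts, and Cd68 in replicate 3, with 357, 427 and 442. Ptprc, Adgre1 and Itgam had at most 5 counts in any library. The part of other cells in the Ccl5 counts was not tested.

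Promoter sequences from RefSeq on GRCm38.p6, covering 250 bases before to 50 after the annotated start, were matched for 6 of the 10 genes. The promoters of 4 are given because they set the letters of an NF-κB site beside very different levels of mRNA. Capitals mark matches to GGG and TTCC set 3 bases apart on either strand, a core shared by many NF-κB sites, to TGANTCA (AP-1, either strand), to TTGCNNAA (C/EBP, either strand) and to TATAAA, the TATA box, on the sense strand only. The window of Cxcl12 lies at chr6:117168285-117168584 on the plus strand, that of Csf1 at chr3:107760420-107760719 on the minus strand, that of Cxcl1 at chr5:90890995-90891294 on the plus strand and that of Il6 at chr5:30012864-30013163 on the plus strand.
Cxcl12: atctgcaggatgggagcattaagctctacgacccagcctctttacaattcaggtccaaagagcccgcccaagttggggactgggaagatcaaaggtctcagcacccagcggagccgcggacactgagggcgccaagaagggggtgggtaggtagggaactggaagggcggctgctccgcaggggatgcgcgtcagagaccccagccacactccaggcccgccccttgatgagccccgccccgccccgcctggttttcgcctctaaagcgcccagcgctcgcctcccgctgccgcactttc
Csf1: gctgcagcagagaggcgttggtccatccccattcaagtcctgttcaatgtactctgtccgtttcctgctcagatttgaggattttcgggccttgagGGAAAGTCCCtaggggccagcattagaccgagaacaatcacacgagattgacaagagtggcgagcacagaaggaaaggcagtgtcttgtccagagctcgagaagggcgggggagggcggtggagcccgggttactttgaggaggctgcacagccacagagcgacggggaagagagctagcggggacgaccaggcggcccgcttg
Cxcl1: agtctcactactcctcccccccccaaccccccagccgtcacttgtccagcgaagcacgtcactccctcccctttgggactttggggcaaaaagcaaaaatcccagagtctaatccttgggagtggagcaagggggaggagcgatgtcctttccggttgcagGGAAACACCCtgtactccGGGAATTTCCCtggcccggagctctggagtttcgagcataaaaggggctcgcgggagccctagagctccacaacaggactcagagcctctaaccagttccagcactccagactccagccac
Il6: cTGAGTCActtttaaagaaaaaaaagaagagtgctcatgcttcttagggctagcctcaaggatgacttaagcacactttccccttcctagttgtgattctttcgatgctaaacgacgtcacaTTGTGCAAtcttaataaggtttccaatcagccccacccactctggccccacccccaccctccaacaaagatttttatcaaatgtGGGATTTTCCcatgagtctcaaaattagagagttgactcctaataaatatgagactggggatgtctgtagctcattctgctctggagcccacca

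The NF-κB letters were present in the windows of Csf1, Cxcl1 and Il6 and absent from those of Cxcl12, Il11 and Lif. Among all 32851 promoter windows of the table, 5.56% held them. In Il6 the match began 44 bases before the start, in Cxcl1 there was 1 match at 89 bases and an overlapping pair at 71 and 70 bases before the start, and in Csf1 it began at 154 bases. These 3 genes had means of 0.0962, 18.7 and 137 CPM per kb of exon, so the same letters stood before a gene near the limit of detection and before the most abundant of the set on that scale. The AP-1 letters, found in 7.81% of all windows, were present in Il6, Lif and 1 of 2 windows of Il11. The C/EBP letters, found in 10.8%, were present in Il6 alone, and TATAAA, found in 8.32%, in none of these windows. Variants of the TATA box other than TATAAA were not searched, so its absence does not follow. The Cxcl12 window had the most CG dinucleotides, 20, against 16 for Csf1, 10 for Cxcl1 and 3 for Il6. A match describes the letters and was not tested for binding.

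Levels of different genes are comparable only per length, so CPM was divided by the kilobases of exonic sequence of each gene. On that scale Csf1 was at 137 ± 1.74 CPM per kb, Ccl2 at 133 ± 8.47 and Cxcl12 at 116 ± 1.98 (each SD, n = 3). The ranges of Csf1 and Ccl2 overlapped, and both lay above that of Cxcl12. Ccl7 followed at 57.5 ± 1.61, Cxcl1 at 18.7 ± 1.15, Cxcl5 at 5.14 ± 0.188 and Lif at 1.54 ± 0.215 CPM per kb (each SD, n = 3). Each of these ranges was clear of its neighbors. Ccl5, Il11 and Il6 had means from 0.0962 to 0.163 CPM per kb, and the ranges of Ccl5 with Il11 and of Il11 with Il6 overlapped. Of the 9 neighboring pairs in the order, 6 had ranges that did not overlap.

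The order of the first 3 genes depended on the length taken. Cxcl12 and Csf1 have several annotated coding transcripts, the shortest of 1878 and 773 bases against 8176 and 5281 bases of exonic sequence in all, and the counts do not show which were present. With the longest protein-coding transcript as the length, Ccl2 was first at 187 CPM per kb, Csf1 at 173 and Cxcl12 at 169. With the mean length of the coding transcripts, Csf1 was first at 370, Cxcl12 at 268 and Ccl2 at 187 CPM per kb. Ccl7, Cxcl1, Cxcl5 and Lif kept the fourth to the seventh place on each of these scales. Cxcl1 is annotated as a single unbroken exonic stretch of 1875 bases because its annotated transcripts together cover the whole gene, and its level was 36.7 CPM per kb when the coding transcript of 953 bases was used.

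Whether these levels differed between libraries by more than counting noise was asked with a chi-square of each gene's counts against the scaled library sizes, adjusted by the Benjamini-Hochberg method over the 13814 genes that reached 10 counts in each of the libraries. This compares libraries of the same cells and not conditions. Of the 8 tested members, 5 varied beyond counting error, against 43.9% of all genes tested. The members that varied were Ccl2 (adjusted p = 1.48e-12), Cxcl12 (adjusted p = 1.02e-05), Lif (adjusted p = 0.00569), Cxcl1 (adjusted p = 0.00572) and Csf1 (adjusted p = 0.0134). Ccl7, Cxcl5 and Il11 did not pass the threshold, with adjusted p of 0.255, 0.640 and 0.906. A test of this kind detects small differences in abundant genes, and 75.1% of genes from 100 to 1000 CPM passed it.

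**Figure D2:**
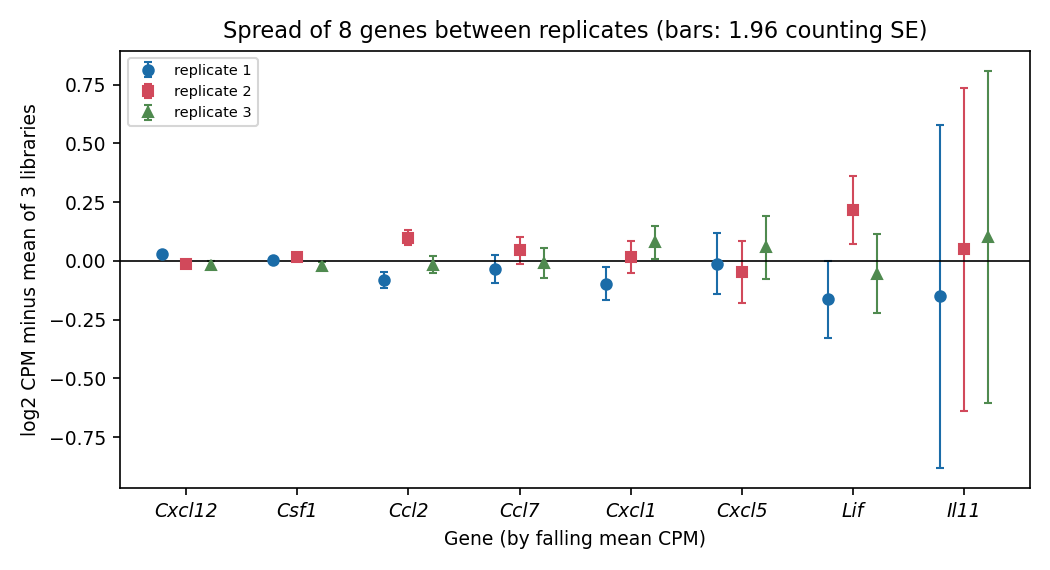
For the 8 tested genes, log2 CPM of a library minus the mean over the 3 (vertical axis), with bars of the 95% counting error. Ccl2 is highest in replicate 2 and lowest in replicate 1, Lif is highest in replicate 2, and the bars of Il11 are wide because it has 15 to 17 counts per library.

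The sizes of these differences were small. The highest library exceeded the lowest by 1.03-fold for Cxcl12 and Csf1, by 1.13-fold for Ccl2 and Cxcl1 and by 1.30-fold for Lif. The standard deviation of log2 CPM was 0.02 for Cxcl12 and Csf1 and 0.09 for Ccl2, where the median of genes from 100 to 1000 CPM was 0.05. For Lif it was 0.20 and for Cxcl5 0.05, where the median of genes from 1 to 10 CPM was 0.16. Replicate 2 carried several calls. Without replicate 2, Ccl2 (adjusted p = 0.0513), Lif (adjusted p = 0.611) and Csf1 (adjusted p = 0.160) no longer passed. In that setting 2 members passed, Cxcl12 and Cxcl1, against 12.45% of all genes tested. Without replicate 1, Cxcl1 (adjusted p = 0.432) and Cxcl12 (adjusted p = 0.417) no longer passed. Without replicate 3, Cxcl1 (adjusted p = 0.0566) and Csf1 (adjusted p = 0.371) no longer passed. Ccl5, which had too few counts for the test, was called when no count minimum was set (adjusted p = 0.00777). That setting called 25.94% of all genes tested.

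The chemokine genes next to Ccl2 and Ccl7 were almost silent. Ccl2 and Ccl7 lie 8.26 kb apart in a cluster of CC chemokine genes, and the neighbors Ccl11 and Ccl12 had 0 counts in every library. Ccl11 encodes the eosinophil attractant eotaxin, and CCL12 is a monocyte attractant close to CCL2. Per kilobase of exon, Ccl2 was at least 2123-fold higher than Ccl11 and at least 1054-fold higher than Ccl12, with 3 counts per library taken for the genes at 0. Ccl8, a further CC chemokine gene of this cluster, had 8, 7 and 5 counts. Gm17268, whose gene body spans that of Ccl2 on the other strand, had 0 counts, and none of the 10 members shared exonic bases with another annotated gene. Ccl2 and Ccl7 thus stood at 152 and 46.0 CPM in a stretch of genes at or near 0.

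The CXC cluster on chromosome 5 showed the same contrast. Cxcl5 and Cxcl1 are separated by 130 kb that hold Ppbp, Pf4, Cxcl3 and Cxcl15, and Cxcl2 lies just beyond Cxcl1. Cxcl2 and Cxcl3, which encode further ligands of CXCR2, were as good as absent, with 1, 0 and 1 counts for Cxcl2 and 0 counts in every library for Cxcl3. By counts Cxcl1 was at least 543-fold higher than Cxcl3, and per kilobase of coding transcript at least 579-fold, with 3 counts per library taken for Cxcl3. Pf4 and Cxcl15 had at most 1 count. Ppbp, known from platelets, was at 1.04 ± 0.0645 CPM (SD, n = 3). Mthfd2l, an enzyme gene of folate metabolism at the edge of the cluster, had 29.8 CPM.

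**Figure D3:**
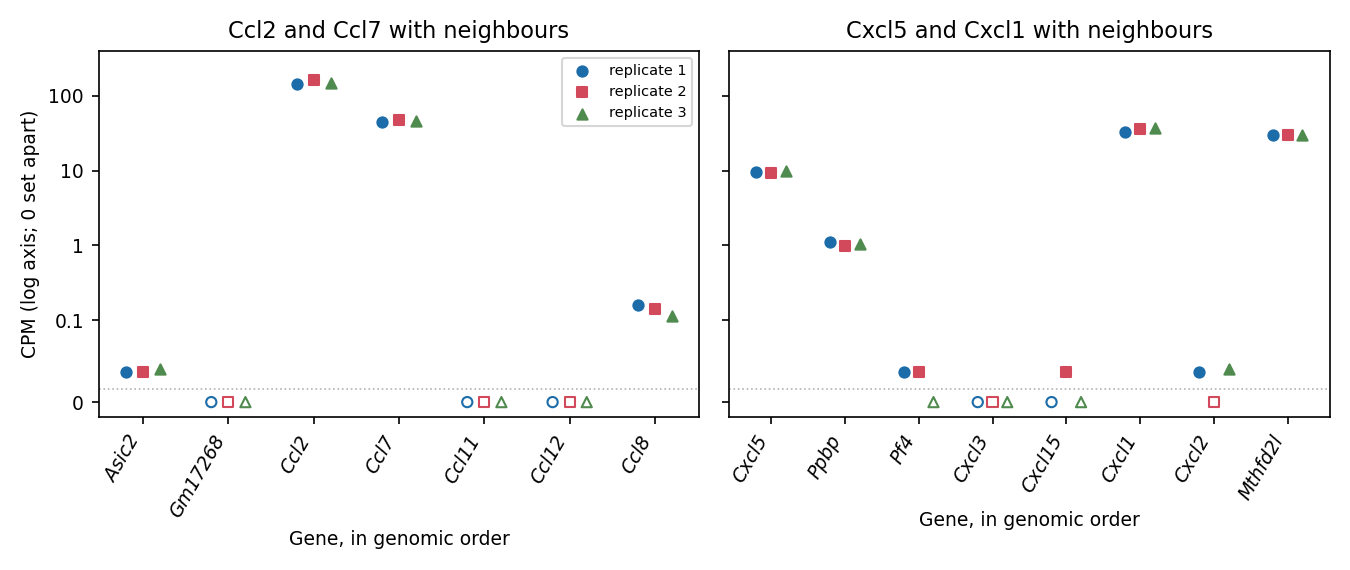
CPM (log axis, with 0 set apart below the dotted line as open symbols) of each protein-coding gene of the annotation between, or within 100 kb of, Ccl2 and Ccl7 (left) and Cxcl5 and Cxcl1 (right), in genomic order for the 3 libraries. Ccl2 and Ccl7 rise above neighbors of at most 8 counts, and Cxcl5 and Cxcl1 are separated by genes of which only Ppbp, near 1 CPM, exceeds 1 count.

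Shared sequence could move counts between related chemokine genes. None of the 50-base windows of the coding mRNAs of Ccl2, Ccl7, Cxcl1, Cxcl12, Csf1, Lif, Il6 or Ccl5 occurred in a transcript of another gene. For Cxcl5 and Il11 the shares were 3.08% and 3.42%, and 0% at 100 bases. The read length is not given in the sources used here.

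Of 31 other chemokine genes, 5 had a mean of at least 1 CPM, against 52.2% of all protein-coding genes. At most 3 counts in every library were found for 21, and 13 had 0 counts throughout. Of all 46603 genes, coding or not, 23189 had a count in at least 1 library. The share of all genes with at most 3 counts is not given here. Cx3cl1, which encodes a membrane-bound chemokine, was the highest per kilobase, at 26.9 ± 1.77 CPM (SD, n = 3). Cxcl10, an interferon-induced attractant of T cells, was at 4.60 ± 0.836 CPM (SD, n = 3) and Ccl9 at 5.13 ± 0.562 CPM (SD, n = 3). Of the 6 that could be tested, 3 varied beyond counting error, against 43.9% of all genes tested. The median of the 31 was 0.00746 CPM. That of the 10 members was 22.3 CPM, but these include cytokines that are not chemokines. Members and lists were chosen with earlier results of these data known, so the medians do not compare like sets.

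The receptors of the members fell into a silent and an expressed group. Ccr2 and Ccr3, receptors of CCL2 and CCL7, and Cxcr1 and Cxcr2, receptors of CXCL1 and CXCL5, had 0 counts in every library, and Ccr1 had 0, 0 and 1. Cxcr4, the receptor of CXCL12, had 40, 23 and 17 counts, a mean of 0.550 ± 0.222 CPM (SD, n = 3). Ackr3, which also binds CXCL12, had 12, 18 and 2 counts. Csf1r, the receptor of CSF1, had 16, 6 and 11 counts. The 10 receptor genes of the chemokines and of CSF1 listed here were thus each below 1 CPM. Of the 14 receptor genes 5 had enough counts for the test of variation, and Lifr (adjusted p = 0.0269) and Cxcr4 (adjusted p = 0.0339) varied, where 43.9% of all genes tested did.

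The 4 receptor chains examined for Il6, Il11 and Lif each exceeded 1 CPM, a mean reached by 52.2% of all protein-coding genes. Il6st, the shared signaling chain, had 181, 179 and 184 CPM, a mean of 181 ± 2.33 CPM (SD, n = 3). Lifr had 55.5, 57.8 and 60.3 CPM, a mean of 57.8 ± 2.37 CPM (SD, n = 3). Il6ra was at 15.5 ± 0.252 CPM and Il11ra1 at 14.9 ± 0.689 CPM (each SD, n = 3). Per kilobase of exon, Il6st was at 16.3 CPM per kb against 1.54 for Lif, 0.161 for Il11 and 0.0962 for Il6. Lifr, Il11ra1 and Il6ra averaged 5.37, 3.34 and 1.80 CPM per kb, each above the mean of the 3 ligands, of which Lif came closest. For Cxcl12, Csf1, Ccl2, Ccl7, Cxcl1 and Cxcl5 the order was the opposite, with ligand mRNA present and the receptor mRNA examined at or near 0.

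**Figure D4:**
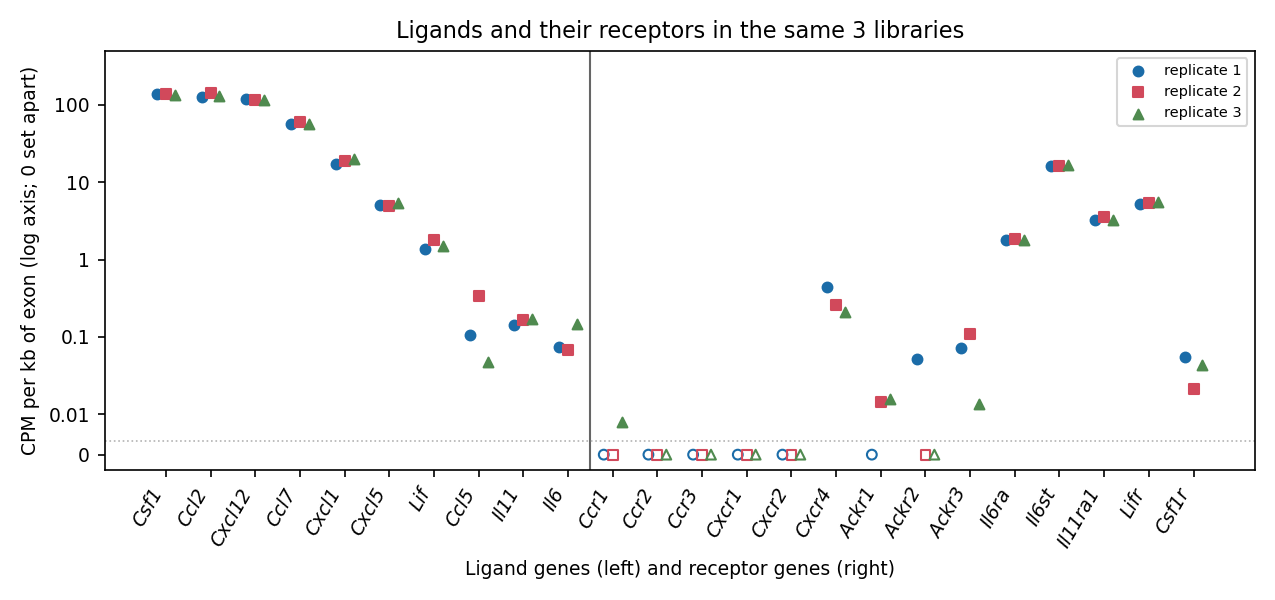
CPM per kilobase of exon (log axis, with 0 set apart below the dotted line as open symbols) of the 10 ligand genes (left) and 14 receptor genes (right) in the 3 libraries. The CCR and CXCR1 and CXCR2 receptor genes lie at or next to 0, whereas Il6st, Lifr, Il11ra1 and Il6ra lie between 1.80 and 16.3 CPM per kb on average.

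Other cytokines and growth factors of blood cell formation were mostly low. Of 21 such genes found in the tables, 7 had a mean of at least 1 CPM, against 52.2% of all protein-coding genes. Counts were 0 throughout for 5, among them Tnf and Il1b, the genes of the main inflammatory inducers of chemokines, and Csf2. Of all 46603 genes, coding or not, 23189 had a count in at least 1 library. Il1a had 0, 2 and 0 counts. Of the 11 that could be tested, 4 varied beyond counting error, where 43.9% of all genes did. Mif, a cytokine gene expressed in most cells, was the highest per kilobase, at 414 ± 37.3 CPM (SD, n = 3). Clcf1, which encodes a further cytokine of the interleukin-6 family, was at 32.3 ± 3.50 CPM (SD, n = 3) and at 8.49 CPM per kb, against 1.54 for Lif. Kitl, the gene of stem cell factor, was at 28.4 ± 2.12 CPM (SD, n = 3). Il34, the other ligand of the CSF1 receptor, was at 4.36 ± 0.779 CPM (SD, n = 3).

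Genes that carry signals to chemokine and cytokine promoters were present throughout. Of 29 genes of NF-κB, C/EBP, AP-1, STAT3 and interferon regulatory factor signaling and of the receptors upstream, 29 had a mean of at least 1 CPM. Of all protein-coding genes 52.2% reached that mean. Nfkb2 was at 388 ± 21.5 CPM, Rela at 228 ± 16.3 CPM and Fosl1 at 118 ± 7.35 CPM (each SD, n = 3), the 3 highest per kilobase. All 29 were tested, and 19 varied between libraries beyond counting error, read against the 43.9% of all genes. The signaling genes, including the receptors of interleukin-1 and tumor necrosis factor, were thus present alongside Il6, Il11 and Ccl5 at under 1 CPM.

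AU-rich elements in the 3′ untranslated region mark many cytokine mRNAs for rapid decay, through proteins such as tristetraprolin. The pentamer ATTTA was counted in the region after the stop codon of the longest coding transcript. Cxcl1 had 11.8 per kb, Il11 8.38 and Il6 5.995, more than 99.5%, 98.4% and 95.3% of the 19781 genes with at least 100 bases there. Ccl7 had 4.60 per kb, Cxcl5 4.50, Ccl2 3.64, Lif 2.20, Csf1 1.90, Cxcl12 0.771 and Ccl5 0. The median over the 19781 genes was 1.35 per kb. The longer element TTATTTAT was present 6 times in Il11, 3 times in Cxcl1 and 2 times in Lif and was absent from the other 7 members, where 14.1% of all genes held it. The 30-base stretches of highest ATTTA content are given for these 3 genes and for Cxcl12 as a contrast, with the pentamers in capitals and T written for U.
Cxcl1: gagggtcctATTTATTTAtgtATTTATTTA
Il11: ctttaaaaccagatcttATTTATTTATTTA
Lif: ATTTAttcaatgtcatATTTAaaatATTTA
Cxcl12: aagcaaatccgaATTTAaataggacATTTA

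The stretch of Cxcl1 holds 4 pentamers, that of Il11 holds 3 and that of Cxcl12 holds 2. The genes rich in the element differed in level, with Cxcl1 at 18.7 and Il11 at 0.161 CPM per kb of exon. The stability of the mRNAs was not measured.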

How the data were processed

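The 3 KO-actin libraries were analyzed from counts. These counts, as the authors deposited them, are whole numbers of reads for each Ensembl gene and carry no normalization. The submitters' processing notes name Trimmomatic, FastQC, HISAT2, HTSeq and the build mm10 (GRCm38). Annotation, strand setting and the handling of reads on several genes are not given in the sources used here. Symbols were matched for 46005 of 46603 genes, and coordinates and lengths were taken from GENCODE M21 on GRCm38.

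TMM factors came from edgeR 4.0.16 in R 4.3.3. Size factors of DESeq2 1.42.0 and plain totals served as alternatives. Depth was 44383636 to 49932446 counts, and intervals and the floor of 3 counts cover counting error only. The chi-square had 2 degrees of freedom and an adjusted p threshold of 0.05. The test was checked on simulated counts with counting noise alone and 200 genes changed in replicate 2. It recovered 126 of them at 1.2-fold and 186 at 2.0-fold, with 8 and 12 false calls. That check does not cover variation beyond counting noise between real libraries. Other values were computed with Python 3.11.15, pandas 2.3.3, numpy 2.4.6 and scipy 1.17.1. Members and lists were chosen with earlier results of these data known. Named were the members, their receptors, the 3 highest genes per kilobase of each list and the neighbors of Ccl2, Ccl7, Cxcl1 and Cxcl5. Other genes named from the lists were chosen after their values were seen. Flt3l was not found by symbol, and 2 further genes fixed for the lists were left out of every list count. Alternatives were scaling, count and level thresholds, GC bins, lengths and leaving out each replicate.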

Additional observations from a re-analysis of the deposited data

How the results depend on the processing

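No paired analysis was possible because every library came from KO-actin cells. The number of members that varied beyond counting error was 5 and ranged from 2 to 3 when any 1 replicate was left out. The number among all genes, 6063, ranged from 1748 to 4786 with its minimum when replicate 2 was omitted. Of all genes tested, 33.12%, 12.45% and 33.99% were called without replicates 1, 2 and 3, against 43.89% with all of them. Total counts as library sizes gave 4 members, without Csf1 (adjusted p = 0.367), and called 43.94% of all genes tested. Scaling within 50 bins of GC content gave 6 members, with Ccl7 added (adjusted p = 0.00348), and 4111 genes, or 29.85% of those tested. The cause was not tested. The share of Cxcl12 in the sum of the members was 49.4% in CPM, and the highest member per kilobase, Csf1, held 29.2%, by construction of that scale. At a threshold of 5 CPM, 3 of the other chemokines, 3 of the other cytokines, 0 endothelial and 1 epithelial marker passed, against 5, 7, 2 and 2 at 1 CPM. The count of 7 members at 1 CPM or more held under both scalings, thresholds of 0.5 and 5 CPM and without any 1 replicate. Orders, ratios and bounds by coding transcript length, and shares and ranks per kilobase, were added after the data had been seen. With coding lengths 7 of 9 neighboring pairs in the order were clear of each other, against 6. With the longest coding transcript Il11 with Il6 was among the 7, by 0.1542 against 0.1528 CPM per kb. Depth limits Il6, Il11 and Ccl5, which had at most 17 counts per library.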

Other observations

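Other genes that inflammatory stimuli induce in fibroblasts were divided in the same libraries. Of 12 such genes, 5 had a mean of at least 1 CPM, against 52.2% of all protein-coding genes. At most 3 counts in every library were found for 3, and the share of all genes at that level is not given here. Ptx3, which encodes a secreted pattern recognition protein, was at 241 ± 6.83 CPM (SD, n = 3). Sod2, the mitochondrial superoxide dismutase, was at 82.9 ± 1.78 CPM, and Ptgs2, the inducible enzyme of prostaglandin synthesis, at 71.1 ± 9.52 CPM (each SD, n = 3). Ptgs2 was lowest in replicate 2, at 60.3 CPM against 78.3 and 74.6, where Ccl2 and Lif were highest. Vcam1 and C3 were at 22.5 ± 2.34 and 8.40 ± 1.38 CPM (each SD, n = 3). Saa3, Lcn2, Nos2 and Icam1 had at most 7 counts in any library, and Steap4 had 0.

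All 11 genes of the list on decay of AU-rich mRNAs had a mean of at least 1 CPM, against 52.2% of all protein-coding genes. Zfp36l2, a relative of tristetraprolin, was at 537 ± 28.6 CPM, Khsrp at 472 ± 8.43 CPM and Hnrnpd at 299 ± 9.72 CPM (each SD, n = 3). Zfp36, the gene of tristetraprolin, was at 24.4 ± 0.297 CPM (SD, n = 3). Of the 11, 6 varied between libraries beyond counting error, against 43.9% of all genes tested.

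Apart from Krt18, endothelial and epithelial markers were low. Of 6 endothelial markers, 2 had a mean of at least 1 CPM, Kdr at 2.09 and Vwf at 2.70, and Cdh5 had 0, 0 and 1 counts. Of 6 epithelial markers, Krt18 at 37.9 CPM and Krt8 at 1.48 CPM passed 1 CPM, and Epcam had 0, 1 and 0 counts.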
